A study of Mus musculus with 9 samples.

Results

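Hyperbaric oxygen (HBO) was compared with untreated spinal cord injury (SCI) by RNA-seq of mouse spinal cord on day 7 after injury. The comparison uses 6 of the 9 libraries of the series, chosen by their titles: 3 from injured mice given HBO and 3 from injured mice given no such treatment. The other 3 libraries, from uninjured mice, serve as a reference level; their treatment label is no injury, their titles call them controls and the series design calls them sham, the name used here. All mice were wild-type C57BL/6 of 7 to 9 weeks, and no transgene or drug is named in any group. The sources used here do not state the pressure, the number of sessions, the lesion level or the length of cord taken. They also do not tie each library to an animal of its own, so every p-value reflects the spread among these libraries, which may be technical. All 34745 genes of the tables are in scope, of which 24929 had a count in at least 1 library and 17901 passed the filter on low counts and were tested.

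In hyperbaric treatment an animal breathes oxygen in a pressurised chamber, which raises the oxygen dissolved in plasma. One week after a cord injury the lesion holds microglia and blood-derived phagocytes that clear debris, reactive astrocytes and fibroblasts that form the scar, and spared axons and oligodendrocytes. Type I interferons signal through a receptor on nearly every cell to a factor that holds STAT2 and IRF9 and binds the interferon-stimulated response element; type II interferon has its own receptor and acts through another site. Their targets are nucleic acid sensors, effectors that block viral RNA, GTPases that attack enclosed microbes, and the machinery that loads MHC class I.

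Most of the gene lists with the highest median log2 fold change of HBO over SCI were interferon-induced, and 5 promoters of their members are shown because they carry the response element in different positions. The sequences are RefSeq's on GRCm38.p6, each the 160 bases before the transcription start, 5′ to 3′ on the gene's strand. Capitals mark a match to the element's core, GAAA NN GAAA with N for any base, searched on both strands, so that some appear as the reverse complement. Ifit1 and Ifit3, which encode proteins that bind foreign RNA, lie on chromosome 19 at chr19:34640729-34640888 and chr19:34583369-34583528, both on the plus strand. The sensor gene Ddx60 is at chr8:61927927-61928086 on the plus strand, the oligoadenylate synthetase gene Oas1g at chr5:120887614-120887773 on the minus strand, and the immunity-related GTPase gene Irgm2 at chr11:58214817-58214976 on the plus strand.
Ifit1: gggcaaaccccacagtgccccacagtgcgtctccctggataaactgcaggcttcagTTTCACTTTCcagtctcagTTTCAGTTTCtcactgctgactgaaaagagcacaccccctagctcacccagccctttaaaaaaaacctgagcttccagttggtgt
Ifit3: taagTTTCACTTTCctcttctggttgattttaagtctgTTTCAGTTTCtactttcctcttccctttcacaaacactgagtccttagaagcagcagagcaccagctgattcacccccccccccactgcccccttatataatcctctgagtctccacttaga
Ddx60: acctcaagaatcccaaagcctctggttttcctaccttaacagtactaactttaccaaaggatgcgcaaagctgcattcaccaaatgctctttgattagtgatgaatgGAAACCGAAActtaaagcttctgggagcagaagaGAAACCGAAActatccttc
Oas1g: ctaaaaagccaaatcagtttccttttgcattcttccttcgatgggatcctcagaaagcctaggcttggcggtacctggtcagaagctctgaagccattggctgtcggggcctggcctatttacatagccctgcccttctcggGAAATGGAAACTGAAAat
Irgm2: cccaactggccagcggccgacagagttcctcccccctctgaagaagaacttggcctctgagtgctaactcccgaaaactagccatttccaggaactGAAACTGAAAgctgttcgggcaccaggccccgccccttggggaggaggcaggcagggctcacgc

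The first base of the matches lay 104 and 85 bases before the start in Ifit1, 156 and 122 in Ifit3, 53 and 19 in Ddx60 and 64 in Irgm2. In Oas1g both matches, 18 and 12 bases before the start, overlap and share letters. In the whole table of promoter windows, 250 bases before to 50 after the start, 1079 of 27025 genes held GAAA NN GAAA, which is 3.99%. On the 6 interferon lists 31 of the 71 genes with a window held it, or 43.7%. By list the match was found in 10 of 11 guanylate-binding proteins and immunity-related GTPases, 4 of 6 oligoadenylate synthetases, 3 of 7 Schlafens, 8 of 20 effectors, 4 of 10 sensors and 2 of 17 receptor and signalling genes. Among MHC class I and peptide loading genes it was found in 5 of 16, and among MHC class II genes in 0 of 4. The shorter palindrome TTCNNNGAA, the site of STAT pairs, was found in 20 of the 71 interferon windows (28.2%) and in 9.55% of all genes in the table. Of the 25 genes that DESeq2 called higher in HBO, 14 had a window, and 3 of those held GAAA NN GAAA. The windows of Irf7, Ifi44, Lgals3bp, Oasl1 and H2-Q4 held none. A match describes these letters and shows neither binding nor use of a site.

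Library totals were 12463783 to 14142161 counts in HBO, 13726337 to 15715484 in SCI and 11159587 to 13496372 in sham. Levels are given as CPM, the count of a gene relative to the TMM-scaled size of its library. In the first principal component of the 6 libraries, with 32.6% of their variance, SCI replicate 1 lay at -43.8 and HBO replicate 3 at 36.0, with the other 4 libraries between them and the groups intermixed. HBO replicate 3 stood apart in mitochondrially encoded genes, with a summed 67500 CPM against 29200 to 35800 CPM in the other 5, and in neutrophil markers, with 463 CPM against 105 to 170 CPM. SCI replicate 1 stood apart in skeletal muscle genes, with 839 CPM against 16 to 137 CPM, and in erythroid genes, with 1420 CPM against 316 to 506 CPM. Many values below moved when either library was left out, and for most of these the value without it is also given.

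No gene passed an adjusted p of 0.05 in edgeR's quasi-likelihood test with Benjamini-Hochberg adjustment: 0 of 17901 (0%), with a lowest adjusted p of 0.806. At an unadjusted p under 0.05, 749 genes (4.18%) were found, 389 (2.17%) higher in HBO and 360 (2.01%) lower. The groups did not overlap in 1437 genes (8.03%): every HBO library lay above every SCI library in 708 (3.96%) and below in 729 (4.07%). The Wald test of DESeq2 called 26 genes (0.145%), of which 25 (0.14%) were higher in HBO and 1 (0.00559%) was lower. Of these 26, 3 stayed under 0.05 in DESeq2 without HBO replicate 3. DESeq2 was not refitted without any other single library, and a smaller group by itself raises p. A call lost in that fit, here and below, therefore does not show that the gene depends on HBO replicate 3. The DESeq2 log2 fold change fell in some genes that lost their call, such as Ifit1 (2.1 to 1.35). In others, such as H2-Q7, it did not (1.1 to 1.16). The median log2 fold change of all genes was 0, and 49.5% of genes had a value above 0. In what follows a gene is described as higher or lower by its values, and "called by DESeq2" refers to that test with all 9 libraries.

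**Figure D1:**
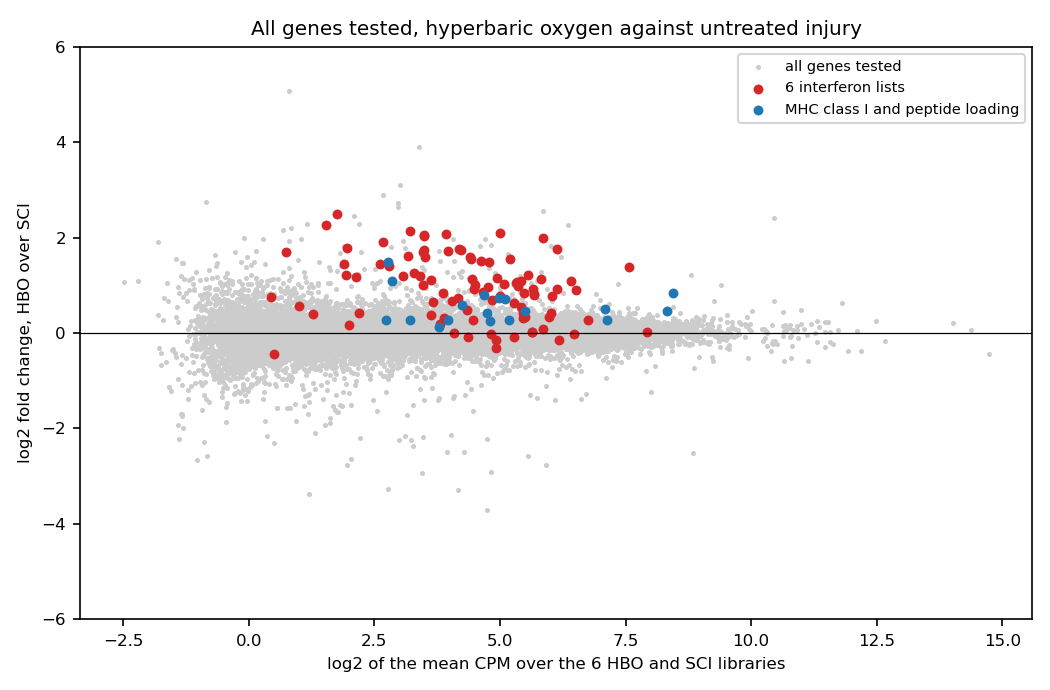
Log2 fold change of HBO over SCI (y axis, edgeR) against the log2 of the mean CPM over the 6 HBO and SCI libraries (x axis), with 1 grey point for each of the 17901 genes tested, red points for the 6 interferon lists and blue points for MHC class I and peptide loading. Of the 93 interferon list genes tested, 84 lie above 0, as do all 18 MHC class I genes, while 49.5% of all genes do.

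The interferon-induced genes were mostly higher in HBO than in SCI. The receptor and signalling list was an exception, with 9 of 16 positive and a median of 0.02. On 6 lists with 96 genes, 93 were tested, 84 had a positive log2 fold change, and the median was 0.97 beside 0 for all genes. At an unadjusted p under 0.05, 62 of the 93 were higher and 0 lower, beside 2.17% and 2.01% of all genes. Every HBO library lay above every SCI library in 47 of the 93, beside 3.96% of all genes. In 0 of them was every HBO library below, beside 4.07%. DESeq2 called 12 of the 93, all higher, beside 0.14% of all genes. These shares are also the background for the list counts with all libraries that follow. For counts at an unadjusted p under 0.05 without HBO replicate 3, 1.36% of all genes were higher and 1.05% lower. Without SCI replicate 1 the shares were 1.61% and 1.23%, and without both libraries 1.11% and 1.21%. The lists were chosen with earlier results of these data known. HBO replicate 3 held the highest of the 6 values in 71 of the 93 genes, HBO replicate 2 in 14, HBO replicate 1 in 1 and an SCI library in 7. Without HBO replicate 3 the median over the 93 was 0.56, and without SCI replicate 1 it was 1.01. Without HBO replicate 3, and so with a smaller HBO group, 0 of the 12 calls remained in DESeq2, and their adjusted p ran from 0.0688 to 1. HBO replicate 3 is also the library high in neutrophil and mitochondrial counts, and the part of these in the interferon values was not tested. In bulk tissue, more cells of a type and more RNA per cell cannot be told apart.

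The interferon genes Ifnb1 and Ifng were near or at 0, and other interferon genes are not reported here. Ifnb1, which encodes interferon beta, had no count in any of the 9 libraries, and Ifng, the type II interferon of lymphocytes, had 2 counts in HBO replicate 1 and none elsewhere. The receptor chains had values near 0: Ifnar1 had a log2 fold change of -0.02 ± 0.15 (SE), Ifnar2 of 0.02 ± 0.18, Ifngr1 of 0.02 ± 0.17 and Ifngr2 of 0.08 ± 0.15. The receptor kinases were at 0.02 ± 0.10 for Jak1 and -0.09 ± 0.13 for Tyk2. Of the 16 receptor and signalling genes tested, 4 had an unadjusted p under 0.05, all higher in HBO, with Irf7, Stat2 and Irf9 among them. The list's median was 0.02, its lowest value -0.43 for Socs1, a feedback inhibitor, and its highest 1.74 for Irf7. Irf1, Irf3 and Irf8, transcription factors that act early in the response or in myeloid cells, had log2 fold changes of 0, -0.15 and -0.15.

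Irf7, the transcription factor that amplifies type I interferon production, was at 10.2, 9.78 and 5.83 CPM in the SCI libraries and at 15.1, 25.2 and 46.2 CPM in the HBO libraries. All HBO values exceeded all SCI values, and the sham libraries, at 5.77 to 8.78 CPM, overlapped SCI. Its log2 fold change was 1.74 ± 0.37 (SE; edgeR adjusted p = 0.806; DESeq2 adjusted p = 0.00373), and 1.22 without HBO replicate 3 (DESeq2 adjusted p = 0.198). Stat2, a subunit of the factor that binds the response element, was at 50.8, 55.0 and 39.5 CPM in SCI and at 64.0, 77 and 136 CPM in HBO, with sham at 35.8 to 53.4 CPM. Its DNA-binding partner Irf9 was at 30.6, 32.9 and 27.7 CPM in SCI and at 34.9, 45.7 and 61.5 CPM in HBO. For both the groups did not overlap, and the log2 fold changes were 0.93 ± 0.26 and 0.64 ± 0.19, both with an edgeR adjusted p of 0.959. They were 0.54 and 0.40 without HBO replicate 3.

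The effectors of the response, which act on viral RNA or protein or regulate the response itself, were all on the positive side: 28 of 28 had a positive log2 fold change, 25 had an unadjusted p under 0.05, and in 18 the groups did not overlap. Their median was 1.1, and 0.64 without HBO replicate 3, when 20 had an unadjusted p under 0.05, all higher. Ifit1 was at 10.5, 16.8 and 9.0 CPM in SCI and at 26.7, 35.1 and 92.9 CPM in HBO. The lowest HBO library was thus above the highest SCI library, HBO replicate 3 was the highest, and sham lay at 9.4 to 18.0 CPM, level with SCI. Ifit1 had a log2 fold change of 2.09 ± 0.45 (SE; edgeR adjusted p = 0.806; DESeq2 adjusted p = 0.0015) and 1.35 without HBO replicate 3 (DESeq2 adjusted p = 0.104). Its neighbour Ifit3 was at 16.5, 29.7 and 23.3 CPM in SCI and at 53.3, 53.2 and 170 CPM in HBO. Here HBO replicates 1 and 2 were nearly equal, both above every SCI library and, like the third, above the sham range of 21.3 to 37.7 CPM. Its log2 fold change was 1.99 ± 0.45, and 1.20 without HBO replicate 3; DESeq2 did not call it.

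Usp18, which removes the ubiquitin-like protein ISG15 from its targets and dampens the interferon receptor, was at 4.57, 6.24 and 4.61 CPM in SCI and at 11.1, 14.4 and 26.5 CPM in HBO. Ifi44, an interferon-induced cytoplasmic protein, was at 4.05, 5.68 and 3.38 CPM in SCI and at 8.63, 14.6 and 30.8 CPM in HBO. For both, HBO replicate 3 was the highest and no HBO library reached down to SCI. Their log2 fold changes were 1.75 ± 0.36 and 2.04 ± 0.41, with DESeq2 adjusted p of 0.00352 and 0.0015, which became 0.171 and 0.0973 without HBO replicate 3. Rtp4, a chaperone of receptor transport that interferon induces, was at 8.16, 10.2 and 6.41 CPM in SCI and at 15.1, 22.5 and 47.3 CPM in HBO (log2 fold change 1.77 ± 0.39, DESeq2 adjusted p = 0.00492, and 0.198 without HBO replicate 3).

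A pair of effectors was less tied to the third HBO library. Lgals3bp, a secreted glycoprotein that binds galectin 3, was at 132, 91.1 and 92.3 CPM in SCI and at 184, 312 and 328 CPM in HBO. HBO replicates 2 and 3 were close to each other, and every HBO library lay above every SCI library and above sham, at 35.9 to 60.2 CPM. Its log2 fold change of 1.38 ± 0.25 was 1.24 without HBO replicate 3, with a DESeq2 adjusted p of 0.00091 with that library and 0.0688 without it. Ifi27l2a, a small membrane protein induced by interferon, was at 9.53, 8.39 and 3.82 CPM in SCI and at 15.3, 29.3 and 27.1 CPM in HBO. Here HBO replicate 2 was the highest, the log2 fold change was 1.72 ± 0.36 and, without HBO replicate 3, 1.62, while the DESeq2 adjusted p moved from 0.00373 to 0.171.

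**Figure D2:**
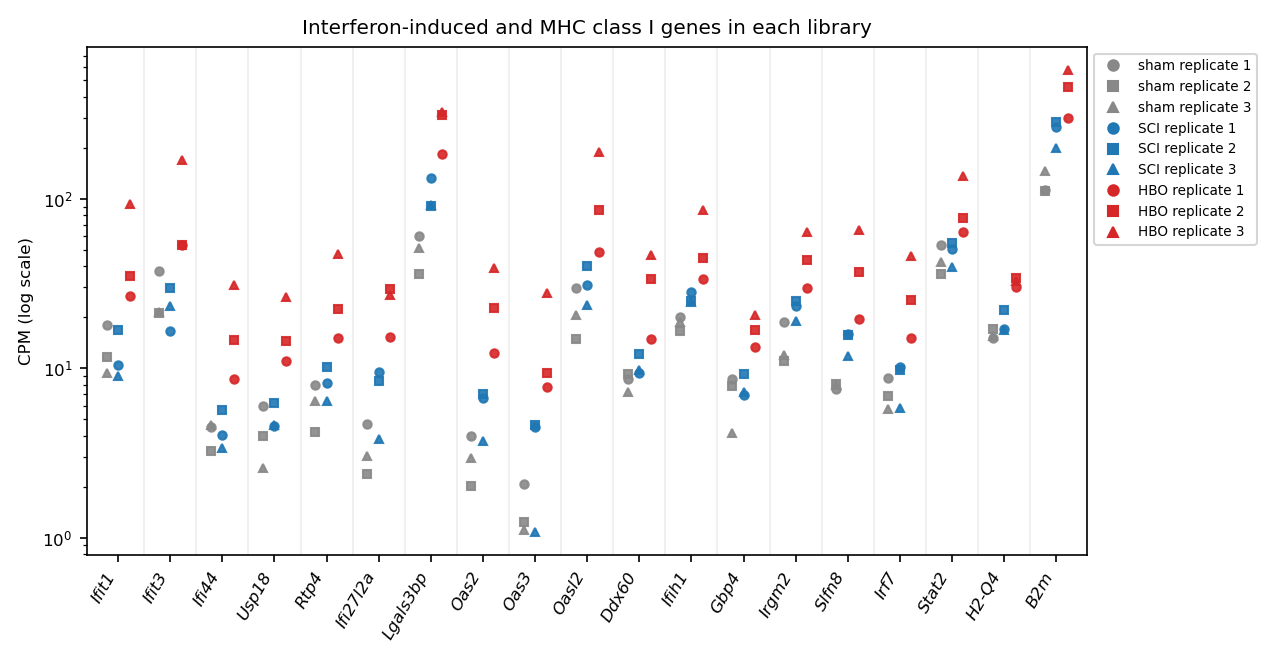
CPM (log scale, y axis) of 19 interferon-induced and MHC class I genes in each of the 9 libraries; grey, blue and red are sham, SCI and HBO, and circle, square and triangle are replicates 1, 2 and 3. In Ifit1 the HBO libraries sit at 26.7 to 92.9 CPM above 9.0 to 16.8 CPM in SCI, with HBO replicate 3 highest, whereas in H2-Q4 they sit together at 30.0 to 34.1 CPM.

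The sensors of foreign nucleic acid were higher in part. Of 16 tested, 14 had a positive log2 fold change, 7 an unadjusted p under 0.05, all higher, and the median was 0.41 (0.30 without HBO replicate 3). Ddx60, a helicase linked to RIG-I signalling, was at 9.33, 12.2 and 9.72 CPM in SCI and at 14.9, 33.5 and 46.6 CPM in HBO. The groups did not overlap, and SCI was close to the sham range of 7.26 to 9.24 CPM. Its log2 fold change was 1.60 ± 0.33 (edgeR adjusted p = 0.806; DESeq2 adjusted p = 0.00373). edgeR called it when HBO replicate 1, the lowest of the 3, was left out (log2 fold change 1.94, adjusted p = 0.0488), while DESeq2 without HBO replicate 3 gave an adjusted p of 0.198. Ifih1 and Ddx58, which encode the sensors of long and of short double-stranded RNA, had log2 fold changes of 1.08 ± 0.28 and 0.93 ± 0.26, which were 0.60 and 0.56 without HBO replicate 3. Ifih1 was at 24.6 to 28.3 CPM in SCI and at 33.8, 44.9 and 86.4 CPM in HBO, and Ddx58 was at 32.3 to 36.5 CPM in SCI and at 37.7, 64.3 and 95.5 CPM in HBO. Dhx58, which regulates both, and Zbp1, a sensor of Z-form nucleic acid that can start necroptosis, had log2 fold changes of 1.19 ± 0.33 and 1.71 ± 0.49 (0.80 and 1.20 without HBO replicate 3). In the DNA sensor family gene Ifi204 the groups overlapped, with 13.4 to 24.0 CPM in SCI and 19.9, 43.1 and 101 CPM in HBO.

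The oligoadenylate synthetases make a messenger that activates RNase L, which cuts viral and cellular RNA. All 9 genes tested had a positive log2 fold change, in 7 the unadjusted p was under 0.05 and the groups did not overlap in 7. The median of 1.77 was the highest of the 50 lists and became 1.09 without HBO replicate 3. Oas2 was at 6.66, 7.07 and 3.74 CPM in SCI and at 12.3, 22.8 and 39.0 CPM in HBO, against 2.02 to 3.99 CPM in sham. The step from SCI to HBO had a log2 fold change of 2.08 ± 0.41 (DESeq2 adjusted p = 0.00115, and 0.0973 without HBO replicate 3). Oasl1, which restrains Irf7 translation, was called by DESeq2 at 1.37 to 2.36 CPM in SCI and 3.32, 5.73 and 8.93 CPM in HBO (adjusted p = 0.046, and 1 without HBO replicate 3). Oas1g was at 0.36 to 1.66 CPM in SCI and at 2.62, 4.57 and 7.20 CPM in HBO (log2 fold change 2.27 ± 0.56). Oas3 was at 4.50, 4.64 and 1.08 CPM in SCI and at 7.78, 9.37 and 27.9 CPM in HBO. In Oas3, HBO replicates 1 and 2 were near each other and HBO replicate 3 was far above them; its log2 fold change of 2.13 ± 0.57 was 1.32 without that library.

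Guanylate-binding proteins and immunity-related GTPases coat and disrupt the vacuoles of intracellular microbes. Of 18 genes, 17 were tested, all with a positive log2 fold change, 14 with an unadjusted p under 0.05 and 10 without overlap of the groups. The median was 1.12, and 0.70 without HBO replicate 3, when 9 had an unadjusted p under 0.05. Gbp4 was at 6.92, 9.29 and 7.20 CPM in SCI and at 13.4, 16.8 and 20.7 CPM in HBO, with sham at 4.15 to 8.62 CPM. The HBO libraries were close together and clear of both other groups, at a log2 fold change of 1.12 ± 0.27 (edgeR adjusted p = 0.916), and 0.95 without HBO replicate 3. Irgm2, which controls the loading of these GTPases onto membranes, was at 18.9 to 25.1 CPM in SCI and at 29.7, 43.7 and 63.5 CPM in HBO (1.03 ± 0.27, and 0.71 without HBO replicate 3). Iigp1, an effector GTPase, had a log2 fold change of 1.56 ± 0.41 (1.01 without HBO replicate 3) and the related predicted gene Gm4951 of 1.91 ± 0.48. Gm4951 was the single gene of this list that DESeq2 called (adjusted p = 0.0484, and 1 without HBO replicate 3). Gbp6 had 1.59 ± 0.43, but other genes cover 29% of its exon bases, which leaves its level less certain.

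The Schlafens, which restrict translation and cell growth in immune cells, had a median of 1.14 over 7 genes, with 5 at an unadjusted p under 0.05, and 0.71 without HBO replicate 3, when 3 were. Slfn8 was at 15.9, 15.8 and 11.8 CPM in SCI and at 19.5, 36.8 and 65.6 CPM in HBO, above 7.58 to 8.10 CPM in sham. HBO replicate 1 was just above SCI and the other two well above it (log2 fold change 1.48 ± 0.35 with a DESeq2 adjusted p of 0.0186, and 0.95 with 0.432 without HBO replicate 3). Slfn5 was at 29.0 to 39.3 CPM in SCI and at 42.2, 73.1 and 117 CPM in HBO. Slfn1, a regulator of T cell growth, and Slfn4, a myeloid member, were by far the highest in 1 library, HBO replicate 3, with 12.5 and 38.7 CPM. For Slfn1, HBO replicates 1 and 2 had 1.70 and 3.17 CPM, beside 0.432 to 1.73 CPM in SCI. For Slfn4 they had 7.29 and 8.36 CPM, beside 1.44 to 7.97 CPM in SCI. The log2 fold changes of Slfn1 and Slfn4, 2.5 ± 0.71 and 2.05 ± 0.86, were 1.26 and 0.85 without HBO replicate 3.

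MHC class I genes, which display peptides from inside the cell to CD8 T cells, were higher in HBO, and the median of their list was similar with and without HBO replicate 3. All 18 genes of the chains, the peptide transporter and the immunoproteasome had a positive log2 fold change, 11 had an unadjusted p under 0.05 and in 11 the groups did not overlap. The median was 0.46, and 0.40 without HBO replicate 3, when 8 had an unadjusted p under 0.05. Among single libraries left out it was lowest, at 0.32, without HBO replicate 2. H2-Q4, a non-classical class I chain, was at 17.1, 22 and 16.9 CPM in SCI and at 30.0, 34.1 and 32.9 CPM in HBO. The HBO libraries lay close together, and SCI overlapped the sham range of 15.1 to 17.0 CPM. Its log2 fold change was 0.79 ± 0.14 (edgeR adjusted p = 0.806; DESeq2 adjusted p = 0.0015), and 0.78 without HBO replicate 3 (DESeq2 adjusted p = 0.0891). A gene on the opposite strand covers 19.1% of its exon bases. H2-Q6 was at 2.41, 5.06 and 3.38 CPM in SCI and at 8.91, 11.9 and 9.51 CPM in HBO, with sham at 5.03 to 7.34 CPM, overlapping SCI by a small margin and below all HBO libraries. DESeq2 called it with all libraries (log2 fold change 1.48 ± 0.27, adjusted p = 0.0015) and without HBO replicate 3 (1.53, adjusted p = 0.041). H2-Q7 followed with 1.1 ± 0.23 (DESeq2 adjusted p = 0.0229, and 0.17 without HBO replicate 3). The H2-Q genes are near-identical copies, and how reads were split between them is not given in the sources used here, so their separate levels are uncertain.

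The classical chains, whose members lie outside the rule for named genes and were added after their values were seen, followed the same direction. H2-K1 was at 119, 124 and 96.3 CPM in SCI and at 136, 205 and 142 CPM in HBO (log2 fold change 0.51 ± 0.16). B2m, the light chain that all class I molecules share, was at 265, 285 and 201 CPM in SCI and at 301, 459 and 576 CPM in HBO (0.83 ± 0.23). Nlrc5, the transactivator of class I genes, had a log2 fold change of 0.73 ± 0.23, and the immunoproteasome subunits Psmb8, Psmb9 and Psmb10 of 0.13, 0.27 and 0.28. For MHC class II, which presents to CD4 T cells, all 7 genes had a log2 fold change of 0 or above with a median of 0.35, but in none was the unadjusted p under 0.05, and the lowest unadjusted p was 0.162. The median was -0.12 without HBO replicate 2. T and B lymphocyte genes were barely detected: 4 of 13 passed the filter, and Cd3e, a T cell receptor subunit, had at most 8 counts in any of the 6 libraries.

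**Figure D3:**
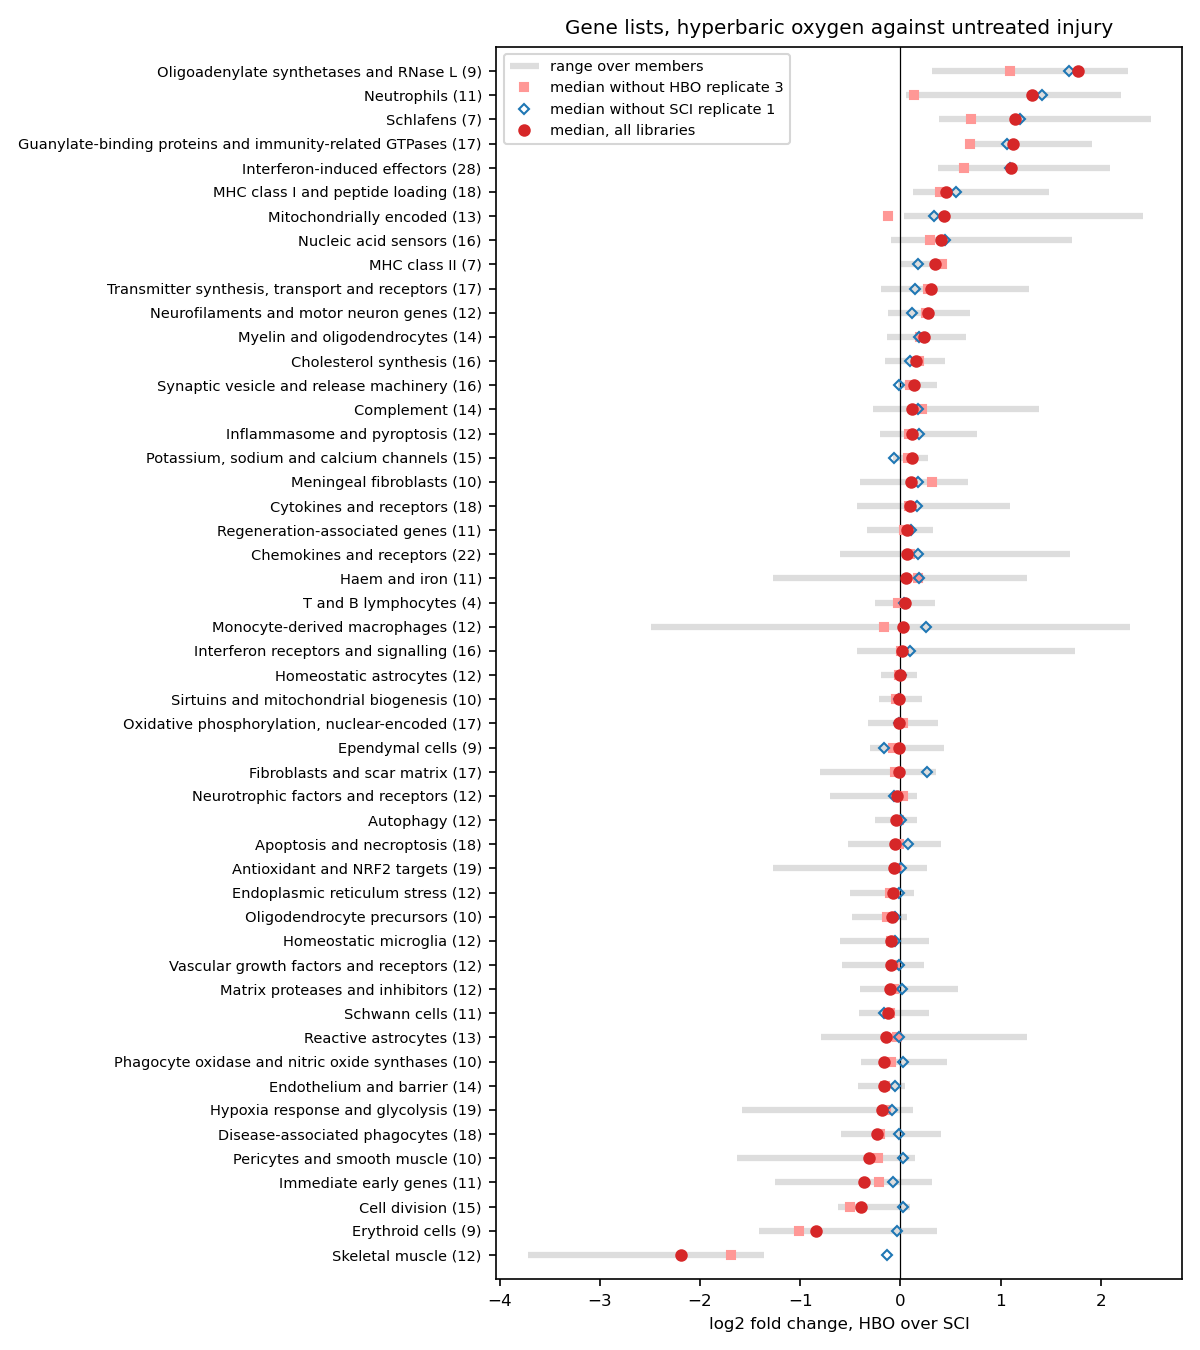
Log2 fold change of HBO over SCI (x axis) for the 50 gene lists (y axis, number of genes tested in brackets): grey bars span the lowest to the highest member, red circles are medians with all libraries, pale squares without HBO replicate 3 and open diamonds without SCI replicate 1. The interferon lists and MHC class I have medians above 0 in the settings shown. Those of the receptor and signalling list stay near 0, at 0.02, 0.01 without HBO replicate 3 and 0.10 without SCI replicate 1. Neutrophils move from 1.31 to 0.14 without HBO replicate 3 and skeletal muscle from -2.19 to -0.13 without SCI replicate 1.

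Among secreted signals outside the interferon lists, DESeq2 called Tnfsf10, the death receptor ligand TRAIL, which interferon can induce. It was at 7.96, 8.53 and 5.90 CPM in SCI and at 14.9, 12.7 and 20.2 CPM in HBO. SCI was level with the sham libraries at 5.77 to 8.62 CPM, and all HBO libraries were above both. Its log2 fold change was 1.09 ± 0.23 (DESeq2 adjusted p = 0.0168), and 0.88 without HBO replicate 3 (adjusted p = 0.392). Of 22 chemokines and chemokine receptors, 3 had an unadjusted p under 0.05, all higher, and the median was 0.07. Ccl12, a monocyte attractant, was at 1.37 to 2.43 CPM in SCI and at 3.75, 4.34 and 7.36 CPM in HBO (1.40 ± 0.36, edgeR adjusted p = 0.916). Cxcl9, a T cell attractant induced by type II interferon, was at 0.208 to 0.652 CPM in SCI and at 1.06, 0.697 and 2.07 CPM in HBO, which do not overlap (1.69 ± 0.61, edgeR adjusted p = 0.959, and 1.17 without HBO replicate 3), with sham at 0.296 to 1.04 CPM. Of 18 cytokines and receptors 2 had an unadjusted p under 0.05, Tnfsf10 and Il10ra, the receptor of interleukin 10. Il1b, a product of activated phagocytes, was at 0.936 to 3.61 CPM in SCI and 2.26 to 5.11 CPM in HBO, which overlap.

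Pydc4, a pyrin-domain gene of the Ifi200 cluster on chromosome 1, and the predicted gene Gm4955 beside it were also called by DESeq2. Pydc4 was at 1.57, 3.05 and 1.80 CPM in SCI and at 5.09, 10.8 and 24.6 CPM in HBO. Gm4955 was at 1.5, 2.08 and 0.936 CPM in SCI and at 3.89, 7.20 and 22.7 CPM in HBO. For both the groups did not overlap and HBO replicate 3 was highest, with log2 fold changes of 2.65 ± 0.55 and 2.89 ± 0.63 (DESeq2 adjusted p = 0.00143 and 0.00179). Without HBO replicate 3 these were 1.89 and 1.87, with DESeq2 adjusted p of 0.159 and 0.232. A further called gene under a RIKEN name, F830016B08Rik, lies on chromosome 18 between Gm4951 and Iigp1. It had a log2 fold change of 1.93 ± 0.42 (DESeq2 adjusted p = 0.00534, and 0.332 without HBO replicate 3).

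Neutrophil genes moved with the third HBO library. All 11 tested had a positive log2 fold change with a median of 1.31, 4 had an unadjusted p under 0.05, and in 0 were the groups separate. Their summed level was 145, 151 and 105 CPM in SCI and 170, 132 and 463 CPM in HBO. Without HBO replicate 3 the median was 0.14 and 0 of 11 had an unadjusted p under 0.05. S100a9, a calcium-binding protein of neutrophils and monocytes, was at 7.42 to 13.4 CPM in SCI and at 16.8, 9.6 and 88.1 CPM in HBO. The granule gene Camp was at 0.792 to 2.29 CPM in SCI and at 5.23, 1.16 and 11.1 CPM in HBO, and the defining marker Ly6g had 22 counts in HBO replicate 3 and 3 to 10 in the other 5 libraries. Ly6c2, a monocyte marker, was likewise at 18.2 CPM in HBO replicate 3 and at 3.12 CPM or less in the other 5.

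Most phagocyte genes overlapped between the groups. Of 18 disease-associated phagocyte genes 0 had an unadjusted p under 0.05, and their summed level was 26200, 19500 and 14800 CPM in SCI and 10800, 19300 and 19300 CPM in HBO. The lysosomal marker Cd68 was at 172 to 371 CPM in SCI and 119 to 237 CPM in HBO (log2 fold change -0.45 ± 0.33, and -0.07 without SCI replicate 1). Aif1, a microglia and macrophage marker, had 0.29 ± 0.21 (0.12 without HBO replicate 3), and 0 of 12 homeostatic microglia genes had an unadjusted p under 0.05. Cybb, the catalytic subunit of the phagocyte oxidase, was at 66.8 to 95.8 CPM in SCI and at 65.5, 140 and 134 CPM in HBO, with HBO replicate 1 at the bottom of the SCI range. Of 14 complement genes, 2 had an unadjusted p under 0.05, C2 (0.95 ± 0.32) and the receptor C5ar1 (1.38 ± 0.56); 46.9% of the exon bases of C2 are shared with other genes, and C5ar1 was 0.70 without HBO replicate 3.

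Arg1, an enzyme of repair-type macrophages, had one of the lowest values among genes whose groups were separate. It was at 62.0, 8.04 and 8.28 CPM in SCI and at 2.76, 7.05 and 4.22 CPM in HBO. SCI replicate 1 was far above all others, and SCI replicates 2 and 3 were just above HBO replicate 2. The log2 fold change of -2.49 ± 1.08 (edgeR adjusted p = 0.959) was -0.80 without SCI replicate 1.

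**Figure D4:**
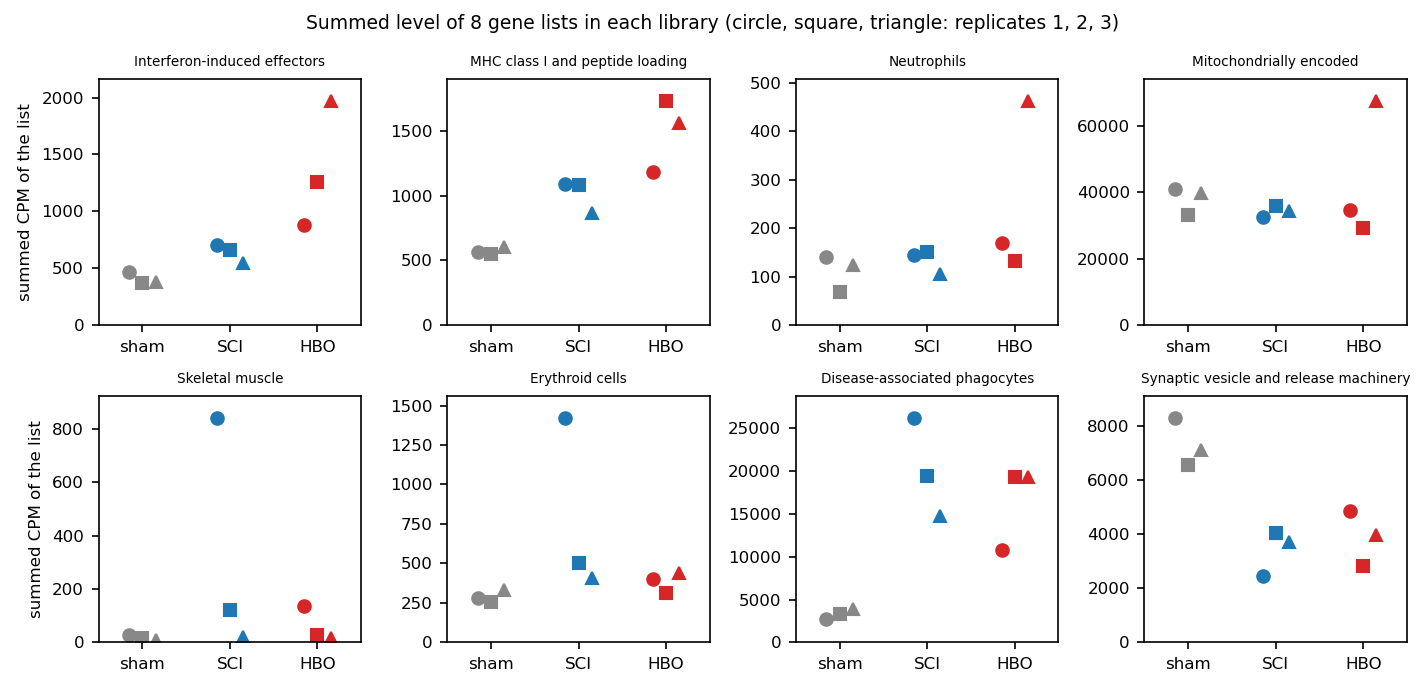
Summed CPM (y axis, from 0) of 8 gene lists in each library, with sham, SCI and HBO on the x axis; circle, square and triangle are replicates 1, 2 and 3. HBO replicate 3 is highest for interferon effectors and stands alone for neutrophils (463 CPM) and mitochondrially encoded genes (67500 CPM), and SCI replicate 1 stands alone for skeletal muscle (839 CPM) and erythroid genes (1420 CPM).

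Several called genes outside the interferon response had a group, sham, SCI or HBO, whose libraries were split between a higher and a lower level. Zfx, an X-linked zinc finger transcription factor, was at 16.7, 13.9 and 20.6 CPM in SCI and at 48.0, 57.3 and 56.8 CPM in HBO. Sham itself was split, with 19.3 CPM in replicate 1 and 49.5 and 42.2 CPM in the other two, so that HBO resembled the higher sham libraries and SCI the lower one. Zfx had a log2 fold change of 1.66 ± 0.29 (DESeq2 adjusted p = 0.000232), and 1.62 without HBO replicate 3 (DESeq2 adjusted p = 0.016). In edgeR its adjusted p was 0.806, 0.0394 when sham replicate 1 was left out, and 1 at the highest among the alternatives.

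Prlr, the prolactin receptor, was at 20.8 to 24.0 CPM in sham, at 2.15, 4.51 and 2.88 CPM in SCI and at 14.6, 4.80 and 14 CPM in HBO. HBO replicates 1 and 3 lay between SCI and sham, and HBO replicate 2 was just above the highest SCI library. Prlr had a log2 fold change of 1.81 ± 0.39 (DESeq2 adjusted p = 0.00373, and 0.171 without HBO replicate 3), and edgeR called it without HBO replicate 2 (2.17, adjusted p = 0.0419). Gpr21, an orphan G protein-coupled receptor, was at 9.24 to 11.0 CPM in sham, at 0.783, 2.43 and 0.72 CPM in SCI and at 2.12, 10.1 and 9.43 CPM in HBO. Here HBO replicate 1 was the one within the SCI range, and the log2 fold change was 2.45 ± 0.58 (DESeq2 adjusted p = 0.00751, and 0.257 without HBO replicate 3). Pnma2, a paraneoplastic antigen of neurons, was at 12.8, 4.51 and 4.25 CPM in SCI and at 26.5, 18.3 and 17.1 CPM in HBO (1.52 ± 0.38, DESeq2 adjusted p = 0.046, and 0.17 without HBO replicate 3). Sham was at 11.2 to 14.6 CPM, level with SCI replicate 1, and edgeR called the gene when that library was left out (2.24, adjusted p = 0.0328).

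The remaining split genes were called by edgeR when a library was left out and not with all 9. Tgfa, a ligand of the EGF receptor, was at 11.2, 12.1 and 75.6 CPM in SCI and at 88.9, 73.9 and 78.7 CPM in HBO, with sham at 66.1 to 86.6 CPM. SCI replicate 3 was thus at the sham and HBO level, and without it the log2 fold change was 2.79 (edgeR adjusted p = 0.000483) in place of 1.29 ± 0.59. Phb, a mitochondrial prohibitin, had the same split, with 2.81, 1.32 and 15.2 CPM in SCI against 12.9 to 18.4 CPM in HBO, and an adjusted p of 0.0283 without SCI replicate 3. Tmem127, a lysosomal membrane protein that limits mTOR signalling, was at 139, 138 and 18.4 CPM in HBO and at 13.5 to 22.2 CPM in all 6 other libraries (2.55 ± 0.58). Without HBO replicate 3 its value was 3.04 (edgeR adjusted p = 0.00178). Ppp1r26 and the zinc finger gene Zfp715 were lower in HBO replicates 1 and 3 and not in HBO replicate 2. Ppp1r26, a regulatory subunit of a protein phosphatase, was at 3.89, 16.3 and 3.06 CPM in HBO and 14 to 20.8 CPM in SCI, and Zfp715 was at 12.7, 35.3 and 12.3 CPM in HBO and 31.7 to 33.4 CPM in SCI. Both were called by edgeR without HBO replicate 2 (adjusted p = 0.0317). The RIKEN gene C330011M18Rik, with 0 CPM in SCI replicates 2 and 3 and 2.12 to 3.26 CPM in the other 4 injured libraries, was called by edgeR without SCI replicate 1 (adjusted p = 0.0328).

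Moap1, a BAX-binding protein, and the protocadherin Pcdhgb1 were also called by DESeq2 as higher, but most of their exon bases are shared with other genes. Moap1 was at 0, 0.139 and 0.144 CPM in SCI and at 5.31, 2.63 and 2.23 CPM in HBO, with sham at 8.14 to 28.1 CPM and 87.7% of its exon bases in an overlapping gene (DESeq2 adjusted p = 5.29e-05, and 2.61e-05 without HBO replicate 3). Pcdhgb1, with 54.6% shared, was at 15.5 to 52.8 CPM in SCI and 101 to 158 CPM in HBO (DESeq2 adjusted p = 0.0496, and 0.198 without HBO replicate 3). The counts of both are uncertain, as is that of ENSMUSG00000102422, a gene under the symbol Schip1 with 100% of its exon bases shared, which edgeR called lower without HBO replicate 2 (adjusted p = 0.0317).

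**Figure D5:**
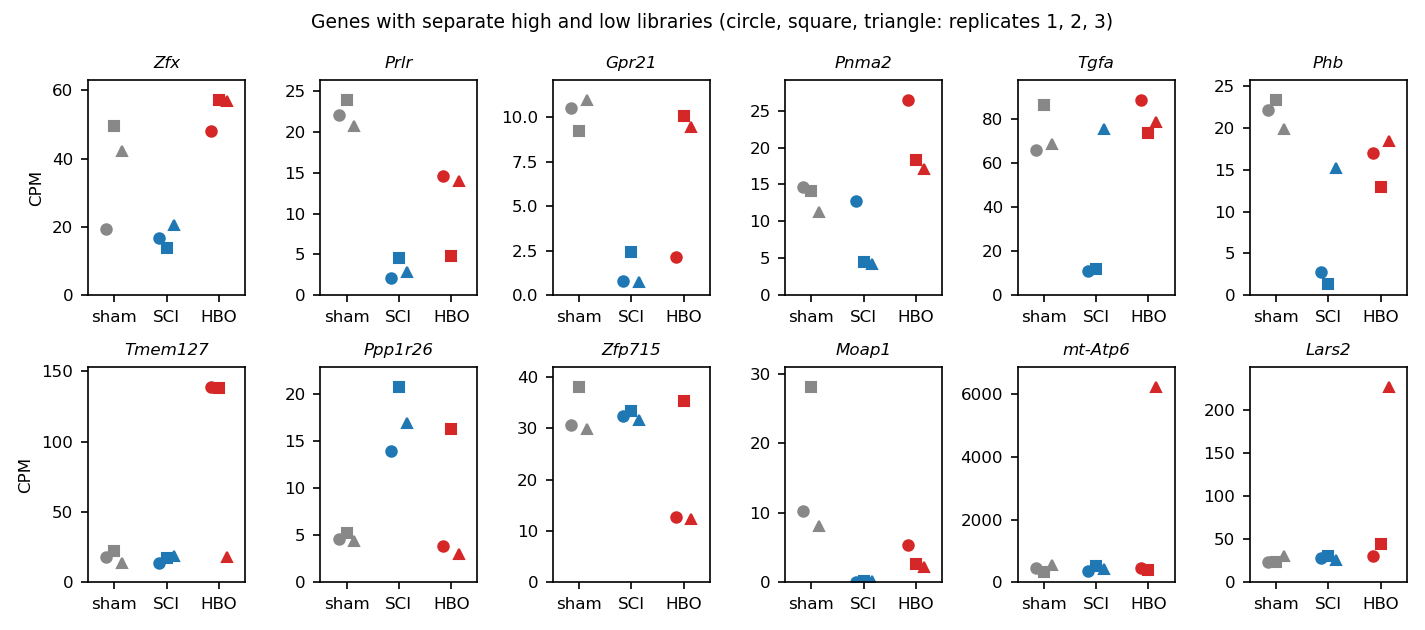
CPM (y axis, from 0) of 12 genes in sham, SCI and HBO (x axis), 1 point per library, with circle, square and triangle for replicates 1, 2 and 3. Tmem127 is at 139 and 138 CPM in HBO replicates 1 and 2 and at 18.4 CPM in replicate 3, Tgfa is at 75.6 CPM in SCI replicate 3 alone of its group, and mt-Atp6 is at 6220 CPM in HBO replicate 3 alone.

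Mitochondrially encoded genes were higher in 1 HBO library. All 13 had a positive log2 fold change, with a median of 0.44, but 1 had an unadjusted p under 0.05 and the median was -0.12 without HBO replicate 3. mt-Atp6, a subunit of the ATP synthase, was at 456, 402 and 6220 CPM in HBO and at 377 to 525 CPM in SCI (2.42 ± 0.87, and -0.04 without HBO replicate 3). Lars2, the nuclear-encoded mitochondrial leucine tRNA ligase, was at 26.2 to 30.6 CPM in SCI and at 31.2, 44.5 and 227 CPM in HBO, so its groups did not overlap but the log2 fold change of 1.82 ± 0.60 was 0.41 without HBO replicate 3. Nuclear-encoded genes of oxidative phosphorylation had a median of -0.01 over 17, with 0 at an unadjusted p under 0.05. The smallest p of that list was that of Ndufb5, a subunit of complex I, at 33.3 to 37.7 CPM in SCI and 38.0 to 45.9 CPM in HBO (0.29 ± 0.14).

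The single gene that DESeq2 called lower was Gipc1, a PDZ-domain adaptor of receptor trafficking. It was at 63.8, 62.5 and 57.8 CPM in SCI and at 45.6, 45.8 and 39.5 CPM in HBO. The libraries of each group were tightly grouped, and the HBO values lay between SCI and sham, which was at 35.9 to 37.9 CPM. The log2 fold change was -0.49 ± 0.10 (edgeR adjusted p = 0.806; DESeq2 adjusted p = 0.0193), and -0.43 without HBO replicate 3 (DESeq2 adjusted p = 0.331).

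Genes of the response to low oxygen mostly had small negative log2 fold changes. Of 19 tested, 16 had a negative log2 fold change, with a median of -0.18. The median was -0.08 without SCI replicate 1, and -0.02 with 8 of 19 positive without HBO replicate 3 as well. With all libraries 1 gene had an unadjusted p under 0.05. That gene was Ankrd37, a direct target of hypoxia-inducible factor, at 2.28, 2.36 and 2.02 CPM in SCI and at 0.707, 1.16 and 0.331 CPM in HBO. The groups did not overlap, and the 97 counts of SCI and 29 of HBO gave a log2 fold change of -1.58 ± 0.39 (edgeR adjusted p = 0.916; DESeq2 adjusted p = 0.159). Genes on the opposite strand cover 26.4% of its exon bases, which leaves its level less certain. Ldha, which makes lactate, was at 189, 118 and 112 CPM in SCI and at 92.2, 119 and 106 CPM in HBO (-0.40 ± 0.19, and -0.11 without SCI replicate 1). Vegfa, which drives vessel growth, was at 20.2 to 32.8 CPM in SCI and 18.5 to 25.3 CPM in HBO (-0.29 ± 0.21, and -0.09 without SCI replicate 1), and Hif1a, the oxygen-regulated subunit itself, had 0.13 ± 0.14.

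Among antioxidant and NRF2 target genes 1 of 19 had an unadjusted p under 0.05 and the median was -0.06. That gene was Hmox1, the haem-degrading enzyme, at 286, 75.8 and 81.1 CPM in SCI and at 45.6, 60.5 and 77.8 CPM in HBO. SCI replicate 1 was far above every other library, and the remaining values overlapped. The log2 fold change of -1.27 ± 0.46 was -0.35 without SCI replicate 1. Ftl1, the ferritin light chain that stores iron, was at 723, 651 and 357 CPM in SCI and at 283, 498 and 262 CPM in HBO (-0.73 ± 0.28).

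The lists of erythroid, skeletal muscle, pericyte and dividing-cell genes had negative medians, which were nearer to 0 without SCI replicate 1. Erythroid genes had a median of -0.84 with 4 of 9 at an unadjusted p under 0.05, and -0.03 with 1 of 9 without that library. Without HBO replicate 3 as well, the median was -0.42, with 0 of 9 positive and 3 at an unadjusted p under 0.05. Hba-a1, an alpha globin, was at 270, 88.7 and 66.7 CPM in SCI and at 61.0, 43.0 and 59.1 CPM in HBO, which do not overlap (-1.38 ± 0.44, and -0.51 without SCI replicate 1). Skeletal muscle genes had a median of -2.19 with 5 of 12 at an unadjusted p under 0.05, -0.13 without SCI replicate 1, and 0.36 without HBO replicate 3 as well. Mb, the muscle oxygen store myoglobin, was at 32.8 CPM in SCI replicate 1 and at 3.12 CPM or less in the other 5. Cell division genes had a median of -0.39, 0.03 without SCI replicate 1 and -0.18 without both libraries. Of these Pcna, the replication clamp, was at 47.6, 29.3 and 27.4 CPM in SCI and 21.8 to 26.8 CPM in HBO (-0.49 ± 0.20, and -0.19 without SCI replicate 1). Pericyte and smooth muscle genes had a median of -0.31 and, without that library, 0.03; of these Notch3, a receptor of mural cells, was at 97.1 to 123 CPM in SCI and 74.0 to 95.7 CPM in HBO (-0.31 ± 0.13, and -0.20 without HBO replicate 3).

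Other genes with separate groups and a lower level in HBO included Cav1, the main protein of caveolae in vessels, at 25.4, 45.3 and 18.8 CPM in SCI and at 15.8, 17.7 and 6.20 CPM in HBO (-1.17 ± 0.44). The zinc finger gene Zscan2 was at 2.94, 5.48 and 7.13 CPM in SCI and at 1.82 to 2.48 CPM in HBO (-1.24 ± 0.32, edgeR adjusted p = 0.916), and was not tied to SCI replicate 1, without which it had -1.51. Crym, a thyroid hormone-binding protein, was at 12.9, 4.85 and 6.48 CPM in SCI and at 2.56 to 3.72 CPM in HBO (-1.40 ± 0.44, and -0.88 without SCI replicate 1). Hspb7, a small heat shock protein of heart and muscle, and Hmcn2, a matrix protein, had -2.20 ± 0.75 and -1.08 ± 0.36, which were -0.46 and -0.66 without SCI replicate 1. Cldn5, the main claudin of the blood-brain barrier, was at 46.6 to 54.7 CPM in SCI and 32.3 to 43.9 CPM in HBO (-0.36 ± 0.16, edgeR adjusted p = 0.959), higher than the sham range of 20.2 to 29.2 CPM in both. Of 14 endothelial and barrier genes, 12 had a negative log2 fold change, 1 an unadjusted p under 0.05, and the median was -0.16. Without SCI replicate 1 the median was -0.05, 5 were positive and 0 had an unadjusted p under 0.05.

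Most myelin genes had small positive values. Of 14, 11 had a positive log2 fold change and 3 an unadjusted p under 0.05, with a median of 0.24. Opalin, a myelin membrane protein of mature oligodendrocytes, was at 17.6, 25.0 and 18.7 CPM in SCI and at 38.9, 30.4 and 27.4 CPM in HBO. All HBO libraries were above all SCI libraries and, but for the first, below the sham range of 37.6 to 56.0 CPM (0.66 ± 0.20, edgeR adjusted p = 0.959). Mal, a proteolipid of myelin, was at 252, 255 and 347 CPM in SCI and at 407, 335 and 505 CPM in HBO, which overlap (0.55 ± 0.18). Mbp, the major myelin basic protein, had 0.12 ± 0.28 and changed sign when SCI replicate 2 or HBO replicate 2 was left out. Oligodendrocyte precursor genes had a median of -0.08, and 2 of 10 had an unadjusted p under 0.05 and were lower: Cspg4, the NG2 proteoglycan, at 112 to 185 CPM in SCI and 90.5 to 111 CPM in HBO (-0.48 ± 0.17, and -0.24 without SCI replicate 1), and Olig1 (-0.38 ± 0.15, and -0.23 without HBO replicate 3). Without either library alone, 0 of the 10 had an unadjusted p under 0.05.

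Neuronal genes overlapped between SCI and HBO, with a few exceptions. Synaptic vesicle genes summed to 6570 to 8290 CPM in sham, 2440 to 4050 CPM in SCI and 2820 to 4860 CPM in HBO; 15 of 16 had a positive log2 fold change, 0 an unadjusted p under 0.05, and the median was 0.14 and, without SCI replicate 1, -0.01. Snap25, a fusion protein of synaptic vesicles, was at 418, 772 and 733 CPM in SCI and at 1040, 535 and 912 CPM in HBO (0.37 ± 0.27, and 0.15 without SCI replicate 1). The choline transporter Slc5a7 of motor neurons and the peptide gene Calca had 0.72 ± 0.33 and 0.70 ± 0.37, with overlapping groups, and 0.51 and 0.45 without SCI replicate 1. Their lowest values with a single library left out were 0.35 and 0.38, and HBO replicate 1 was the highest injured library in both. The lists of transmitter genes and of neurofilament and motor neuron genes had medians of 0.31 and 0.28. Without HBO replicate 1 these were 0.10 and 0.04. Stmn4, a tubulin-binding protein of growing neurites, was at 50.8 to 59.6 CPM in SCI and 60 to 78.4 CPM in HBO (0.33 ± 0.12).

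Most astrocyte and scar genes overlapped between the groups. Gfap, the astrocyte intermediate filament, was at 6460 to 7100 CPM in SCI and 5470 to 6630 CPM in HBO, both above 2300 to 4190 CPM in sham (-0.16 ± 0.22). Of 13 reactive astrocyte genes 0 had an unadjusted p under 0.05, and 2 had separate groups, both lower in HBO, beside 4.07% of all genes. Vim, another filament protein, was at 909, 625 and 576 CPM in SCI and 444 to 555 CPM in HBO, which do not overlap (-0.50 ± 0.24, and -0.27 without SCI replicate 1). Col1a1, the main fibrillar collagen of the scar, was at 1630 to 4230 CPM in SCI and 2200 to 4320 CPM in HBO (0.02 ± 0.44). Tnc, a matrix glycoprotein, was the 1 of 17 fibroblast and scar genes with an unadjusted p under 0.05, at 494, 249 and 174 CPM in SCI and 167 to 185 CPM in HBO (-0.80 ± 0.35, and -0.26 without SCI replicate 1). Cholesterol synthesis genes had 13 of 16 positive values with a median of 0.16, which was -0.03 without HBO replicate 1. Cyp51 and Hmgcs1, enzymes of that pathway, had 0.45 ± 0.18 and 0.40 ± 0.18, with overlapping groups, and 0.32 and 0.26 without SCI replicate 1.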

How the data were processed

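RNA of 9 mouse spinal cord libraries, 3 per group, was extracted with Trizol and sequenced by Illumina protocols, per the labels' protocols. HISAT2 and the build GRCm38 (mm10) are named in the submitters' processing notes; version, counting tool, strand setting and annotation are not stated there. Raw counts of reads for every gene, whole numbers as deposited by the authors, were the input. The deposited FPKM column, the authors' length- and depth-scaled values, was not used.

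Counts were filtered with filterByExpr, scaled by TMM and fitted with glmQLFit over all 9 libraries with 1 mean per group, and HBO minus SCI was tested with glmQLFTest (R 4.3.3, edgeR 4.0.16), with Benjamini-Hochberg adjustment over 17901 genes. The procedure was tested on simulated counts, drawn independently for each gene and library. No simulated library stood apart as HBO replicate 3 and SCI replicate 1 do, so that situation was not tested. Errors are SE; CPM are per library. Alternatives were DESeq2 1.42.0, limma 3.58.1 (voom with quality weights), DESeq2 size factors, no filter, the 6 injured libraries alone, a replicate block and leaving out each library. Fits without HBO replicate 3 in DESeq2, or without it and SCI replicate 1 together, were added after the data were seen.

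The 50 gene lists (696 entries, all but Scn2a found by symbol) and the comparison were chosen with earlier results of these data known, so lists are described by counts and medians without a test. Besides the lists named in the report they are homeostatic astrocytes, potassium, sodium and calcium channels, neurotrophic factors and receptors, regeneration-associated genes, immediate early genes, matrix proteases and inhibitors, meningeal fibroblasts, vascular growth factors and receptors, Schwann cells, ependymal cells, phagocyte oxidase and nitric oxide synthases, sirtuins and mitochondrial biogenesis, haem and iron, endoplasmic reticulum stress, autophagy, apoptosis and necroptosis, inflammasome and pyroptosis, and monocyte-derived macrophages. Named genes are those with a DESeq2 adjusted p under 0.05; the 8 highest and 8 lowest log2 fold changes among non-overlapping genes with an unadjusted p under 0.05 and a mean of 5 CPM or more, predicted and RIKEN names left out; members of each list with the smallest unadjusted p, if under 0.1, up to 6 of an interferon list and 2 of others; a panel of 10 markers; and genes called by edgeR with 1 library left out. Some list members count in their lists and are not reported here. Other receptor, signalling, class I and hypoxia genes in the report were added after their values were seen. Where 67 gene IDs share a symbol, the most counted ID keeps it. Replicate pairs had a chi-square of 12.1 to 38.4 for each degree of freedom, above counting noise in every pair.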

Additional observations from a re-analysis of the deposited data

How the results depend on the processing

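The count of called genes, 0 in edgeR, was also 0 with DESeq2 size factors, no filter on low counts, the 6 injured libraries alone and limma voom; DESeq2 called 26 (25 higher, 1 lower). Leaving out 1 library gave 0 to 4 calls (0 to 2 higher, 0 to 3 lower): 1 without sham replicate 1, HBO replicate 1 or HBO replicate 3, 2 without SCI replicate 1 or SCI replicate 3, and 4 without HBO replicate 2. DESeq2 without HBO replicate 3 called 6 (5 higher, 1 lower), and edgeR without both that library and SCI replicate 1 called 3 (2 higher, 1 lower); these alternatives were chosen after the data were seen, and the cause of the changes was not tested. The 749 genes with an unadjusted p under 0.05 became 431 without HBO replicate 3 and 1483 without HBO replicate 2, the range over all libraries, 389 in DESeq2 without HBO replicate 3 and 414 without it and SCI replicate 1. With only the 250 bases before the start, GAAA NN GAAA was in 3.46% and TTCNNNGAA in 8.13% of all promoters.

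With the replicate number as a block 0 genes were called, 593 had an unadjusted p under 0.05, and Col1a1 turned to -0.05. Deviations of same-numbered HBO and SCI libraries correlated at -0.18, -0.08 and 0.10, so the numbers were not taken as a pairing. Values near 0 changed sign: Col1a1 was -0.28 without SCI replicate 3 and ran from -0.32 to 0.36 over single libraries left out (0.45 without HBO replicate 3 and SCI replicate 1), and Mbp was -0.06 without SCI replicate 2 and ran from -0.15 to 0.49 (0.65 without both). mt-Atp6 ran from -0.04 without HBO replicate 3 to 2.92 without HBO replicate 2 (-0.05 in DESeq2 without HBO replicate 3, -0.15 without both libraries), and mt-Atp8 from -0.21 to 1.40 (-0.22 and -0.31). Of the other comparisons of a named gene with an alternative, 1884 kept direction and side of the threshold and 43 passed it only in the alternative. Of 850 comparisons of a list median with an alternative, 831 moved by less than the spread between libraries and 19 by more, and 58 changed sign, 54 of these to a value within 0.2 of 0. That spread includes the library left out, so the 831 are no measure of stability. Skeletal muscle, from -2.19 to -0.13 without SCI replicate 1, counted as a move of less than the spread. Precision is limited by 3 libraries a group, and that of genes under the filter, among them Ifnb1 and most lymphocyte genes, by depth.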

Other observations

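Lists not described above showed no more members at an unadjusted p under 0.05 than 2 in either direction. Immediate early genes, which respond within minutes to activity or stress, had 10 of 11 negative log2 fold changes with a median of -0.36, and -0.07 without SCI replicate 1. Egr1, a transcription factor of that list, was at 71.8, 56.2 and 44.9 CPM in SCI and at 44.1, 41.8 and 44.7 CPM in HBO (-0.40 ± 0.15, edgeR adjusted p = 0.959, and -0.21 without SCI replicate 1), and the HBO libraries lay close together below all SCI libraries. Of 18 apoptosis and necroptosis genes 1 had an unadjusted p under 0.05, Bax, a pore-forming death protein, at 20.8 to 29.5 CPM in SCI and 13.4, 20.8 and 16.5 CPM in HBO (-0.52 ± 0.19, and -0.35 without SCI replicate 1). Neurotrophic factor, channel, ependymal, Schwann cell, meningeal, protease, vascular growth factor, sirtuin, autophagy, inflammasome, oxidase and endoplasmic reticulum stress genes had 0 members at that threshold. Their medians ran from -0.16 for the oxidase list to 0.12 for the channel and inflammasome lists, beside 0 for all genes.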
